A study of Mus musculus with 20 samples.

Results

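Oncomodulin (Ocm) and 4 further small calcium buffers with EF-hand domains, parvalbumin (Pvalb), calbindin-D28k (Calb1), calretinin (Calb2) and calbindin-D9k (S100g), were followed in mouse whole trachea with and without the adaptor gene Myd88. The 5 genes were taken as all non-control probes that the array files name with these symbols, which gave 7 probes of 41174, with 1 each for Ocm, Pvalb, S100g and Calb1, and 3 for Calb2. Ocm was selected on these same arrays, from a list the study drew up of transcripts called between the genotypes without injury and not called after it. Its differences in the comparisons that made this list are therefore given as descriptions without a p-value, and the other 4 genes were chosen as the buffers it is usually grouped with. For Ocm the study also reported a significant decrease in uninjured Myd88KO tracheas by quantitative RT-PCR, on part of the same RNA samples.

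RNA from 20 tracheas was hybridised to 20 one-colour Agilent mouse arrays, 5 in each of 4 groups. The groups were untreated wild-type C57/Bl6 mice (WT-control), untreated Myd88KO mice (KO-control), and mice of either genotype collected 3 days after 2% polidocanol, a detergent that strips the airway epithelium, had been instilled into the airway (WT-injury and KO-injury). The labels give all mice as C57/Bl6 and aged 4 months, while the methods of the study give an age range, both sexes and biological replicates, and describe the route of instillation differently. The null mice lacked Myd88 in every cell, were bred knockout by knockout after backcrossing, and were compared with a separate wild-type colony rather than with littermates, so genotype and colony cannot be told apart. In whole trachea, fewer cells of a type and less RNA per cell cannot be told apart either.

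EF-hand buffers bind calcium through a helix-loop-helix motif and blunt or carry calcium signals, in contrast to EF-hand sensors, which change shape and switch enzymes. Ocm is the mammalian beta-parvalbumin, best known from the outer hair cells of the cochlea and as a protein released by myeloid cells at injured nerves. Pvalb speeds relaxation of fast-twitch muscle and is found in inhibitory neurons, Calb1 and Calb2 mark sets of neurons, and S100g shuttles calcium across vitamin D-responsive epithelia such as that of the gut. Myd88 relays signals from Toll-like and interleukin-1 receptors.

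Each level below is the log2 of the background-corrected spot intensity minus the log2 of that array's 75th percentile, so a value of 0 is the 75th percentile and a difference of 1 is a doubling. Differences between groups were taken for a single probe at a time across arrays. The detection limit and the sums over gene lists do set different probes side by side, and bright probes weigh most in those sums. The 75th percentile ranged from 495 to 972 intensity units, and 57.5 to 67.8% of spots were well above background on each array. A probe was tested when it was well above background on at least 10 of 20 arrays, which left 26063 probes and 3 of the 5 genes, Ocm, Pvalb and S100g. Adjusted p-values throughout are limma's, with Benjamini-Hochberg adjustment over all probes tested in a comparison, and a probe was called at an adjusted p under 0.01. Arrays with the same replicate number shared 1 of 5 slides, which were scanned on 2 days. The Myd88 probe, whose position relative to the deleted part is not known, read 2.08 in WT-control and 1.86 in KO-control (difference −0.21, adjusted p = 1.00 by limma) and 2.65 in WT-injury against 1.89 in KO-injury (difference −0.77 ± 0.14 SE, adjusted p = 0.00824). Arrays 1 and 5 of KO-injury stood apart in the summed level of 8 secretory and ciliated cell genes, those of the list of 10 with a value on all 20 arrays. Their sums were 1230 and 1630 times the array's 75th percentile, within the 1060 to 2010 of WT-control. The other 3 KO-injury arrays read 556 to 764, and WT-injury read 652 to 825. This sum leaves out the secretory gene Scgb1a1, which had no value on KO-injury array 5. On KO-injury array 1 Scgb1a1 read 4.79, below the 6.98 to 7.93 of WT-control and the 7.65 to 8.25 of KO-control. The ciliated cell gene Foxj1 read 5.71 there, above the 2.39 to 3.82 of WT-control. Array 1 thus matched uninjured tracheas in the sum but not in each gene. The linear sum is carried mostly by the bright secretory genes Scgb3a1, Scgb3a2 and Cyp2f2, so it says little about ciliated cells. Foxj1 read 3.77 on KO-injury array 5, and 2.23, 3.72 and 0.29 on arrays 2, 3 and 4. In WT-injury it ranged from 0.17 to 4.74, so injured arrays of both genotypes varied in this ciliated cell gene. Results for Ocm, Pvalb, S100g and part of the gene lists are given with and without arrays 1 and 5. Where a single value after injury is given, it includes both. The injured Myd88 difference is such a value: arrays 1 and 5 read 1.54 and 1.68, and the other KO-injury arrays 2.04 to 2.09. Arrays 1 and 5 were both scanned on the second day. The labels give no sex. Xist, expressed from the inactive X of females, read 3.25 or more on 13 arrays and −4.26 or less on 7. It was high on 3 of 5 arrays in each of WT-control, KO-control and WT-injury and on 4 of 5 in KO-injury, where array 5 was low.

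Ocm was lower in uninjured Myd88KO tracheas, the difference for which it was chosen. Its single probe (chromosome 5, 143048083 to 143051865 on the minus strand, with the genome build not given in the sources used here) was well above background on all 20 arrays. In WT-control its level was −0.91, −1.40, −0.22, −1.19 and −0.25 on arrays 1 to 5. In KO-control it was −3.54, −3.90, −4.01, −3.81 and −2.54. Every KO-control array lay below every WT-control array, and array 5 was the highest of its group in KO-control. The group means were −0.80 ± 0.54 (SD, n = 5) and −3.56 ± 0.60 (SD, n = 5). The mean difference was −2.76 ± 0.49 (SE), which is 6.79-fold lower in Myd88KO, with a 95% interval of −3.79 to −1.74. Within slides, Ocm was lower in Myd88KO on 5 of 5, by −3.79 to −2.28, and the difference was −2.97 on the first scanning day and −2.46 on the second. This comparison chose the gene, so these values carry no test. Over all probes tested, 100 of 26063 (0.384%) were called in this comparison, 49 higher and 51 lower in Myd88KO.

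After injury, Ocm read lower in Myd88KO on all arrays but one, and the difference did not pass the test. WT-injury read −1.82, −0.14, −2.09, −1.10 and −1.12, and KO-injury read −0.90, −3.19, −2.58, −4.39 and −2.89. KO-injury arrays 2 to 5 all lay below the lowest WT-injury array, whereas array 1, one of the arrays that stood apart, lay among the wild-type values. The means were −1.25 ± 0.76 (SD, n = 5) and −2.79 ± 1.26 (SD, n = 5). The difference was −1.53 ± 0.49 (SE), or 2.90-fold lower, with a 95% interval of −2.56 to −0.51. The adjusted p was 0.188 (limma), and an exact two-sided permutation test of the 10 arrays gave p = 0.0556, where 0.00794 is the smallest that 5 arrays against 5 allow. In this comparison 99 of 26063 probes (0.38%) were called, and Ocm was not among them. The injured arrays did not enter the comparison that picked Ocm, but they did enter the shared estimate of spread and the study's step of setting aside transcripts called after injury.

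The size of the injured difference depended on single arrays of both genotypes, while no setting brought it under the threshold of 0.01. Without KO-injury array 1 it was −2.01 ± 0.42 (SE, adjusted p = 0.0274, limma), and without arrays 1 and 5 together −2.13 ± 0.46 (SE, adjusted p = 0.0463, limma). Without KO-injury array 4 it was −1.13 ± 0.45 (SE, adjusted p = 0.234, limma), and without WT-injury array 2 −1.26 ± 0.50 (SE, adjusted p = 0.333, limma). By scanning day, with all arrays, the difference was −2.28 on the first day, with 3 arrays a group, and −0.42 on the second, with 2 arrays a group. Within slides Ocm was lower in Myd88KO on 4 of 5, from −3.29 to 0.92.

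**Figure D1:**
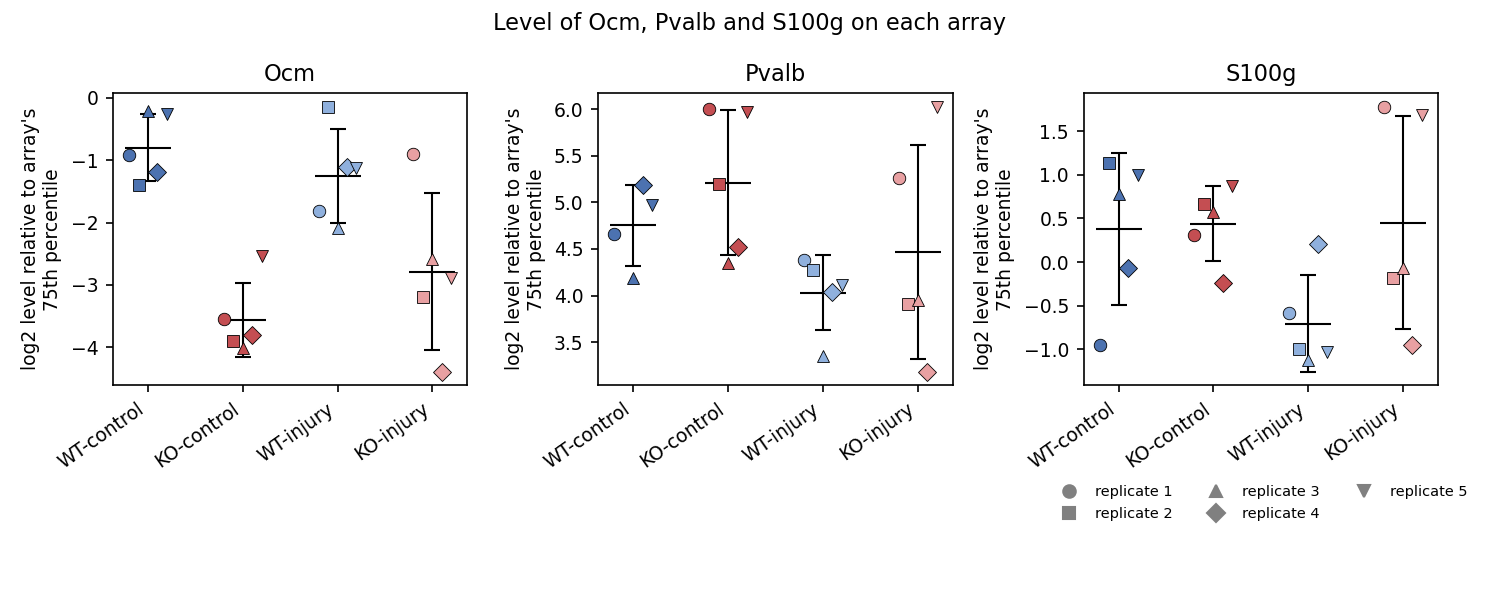
Log2 level of Ocm, Pvalb and S100g relative to each array's 75th percentile, by group. Each symbol is 1 array, with its shape giving the replicate number, and horizontal marks and bars are the group mean and SD (n = 5, or 4 for Pvalb in WT-control). Ocm in KO-control lies below every WT-control array, and KO-injury array 1 is the only KO-injury array among the wild-type values of Ocm.

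Injured and uninjured tracheas overlapped in Ocm in both genotypes. In wild-type tracheas injury minus control was −0.46 ± 0.49 (SE). In Myd88KO it was 0.77 ± 0.49 (SE), and 0.17 ± 0.46 (SE) without arrays 1 and 5. The Myd88KO response minus the wild-type response was 1.23 ± 0.69 (SE), with a 95% interval of −0.22 to 2.68. The injury comparison within each genotype kept Ocm in the study's list and the response difference is built from the same arrays, so they are descriptions too. Ordered by mean, the groups ran WT-control, WT-injury, KO-injury and KO-control, and each neighbouring pair in this order overlapped. As background, 1372 of 26063 probes (5.26%) were called after injury in wild-type mice, 98 (0.376%) in Myd88KO and 0 (0%) for the difference between the responses by limma, where 2703 probes had an unadjusted p under 0.05. Without KO-injury arrays 1 and 5 these counts were 2376 (9.12%) in wild-type, 1967 (7.55%) in Myd88KO and 4 (0.0153%) for the difference. The low count in Myd88KO thus rested on those arrays.

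Genes of myeloid cells, a known source of Ocm at injured nerves, rose after injury in wild-type mice. Of 12 tested neutrophil and macrophage genes, 4 were called higher and none lower, where 5.26% of all probes were called. They were the granulocyte growth factor receptor Csf3r (16.6-fold, adjusted p = 0.0038 by limma), Cd68 of macrophage lysosomes (9.65-fold, adjusted p = 0.000907), Adgre1, which encodes F4/80 (4.07-fold, adjusted p = 0.00408), and the macrophage growth factor receptor Csf1r (2.93-fold, adjusted p = 0.00771). Ocm over the same arrays differed by −0.46. Between the uninjured genotypes, where Ocm differed by −2.76, none of the 12 genes was called by limma or by the methods' one-way test (3 had an unadjusted p under 0.05). By limma 0.384% of all probes were called there, so this count is near the background. The median difference of the 12 was −0.28 against 0.04 over all probes. Their summed level ranged from 359 to 622 in WT-control and 323 to 540 in KO-control. Between the injured genotypes, where Ocm differed by −1.53, none was called either, beside 0.38% of all probes. All 12 read lower in Myd88KO there (−3.87 to −0.13, median −1.35, against −0.03 over all probes) and 9 had an unadjusted p under 0.05. Without KO-injury arrays 1 and 5 the median was −0.54, while the Ocm difference was −2.13. In that fit 4 of the 12 were called higher after injury in Myd88KO, where 0 were with all arrays, and 6 in wild-type. The share of all probes called rose too, to 7.55% in Myd88KO (0.376% with all arrays) and 9.12% in wild-type. The neutrophil gene S100a9 had the widest difference of the list between the uninjured genotypes, −3.17 ± 1.12 (SE, adjusted p = 0.491, limma), with KO-control below WT-control on every array. The part of any cell type in the Ocm difference was not tested.

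Probes beside Ocm on the chromosome were compared between the genotypes in the same way. The files placed 69 other probes of 44 genes within 1 Mb of the Ocm probe, and 49 probes of 31 genes were tested. Between the uninjured genotypes 0 of these 49 probes were called lower by limma or by the one-way test (2 at an unadjusted p under 0.05), 1 was called higher, and their median difference was 0.12, with a lowest value of −0.57. Over all probes, 51 of 26063 were called lower and 49 higher, so a count of 0 in 49 is what the background gives and is no result about the neighbours. The 1 called was Nptx2, a secreted pentraxin of synapses, 533 kb from Ocm (1.97 ± 0.30 SE, 3.91-fold higher in Myd88KO, adjusted p = 0.00122 by limma). After injury 1 of the 49 was called lower, a probe of the diacylglycerol lipase gene Daglb on the other side, at −511.7 kb (−0.94 ± 0.17 SE, adjusted p = 0.00824, limma), a gene of which a second probe gave −0.80 (adjusted p = 0.0569, limma). Ocm and Nptx2 thus lay in 1 window and differed in opposite directions. The Myd88 probe was placed on chromosome 9.

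**Figure D2:**
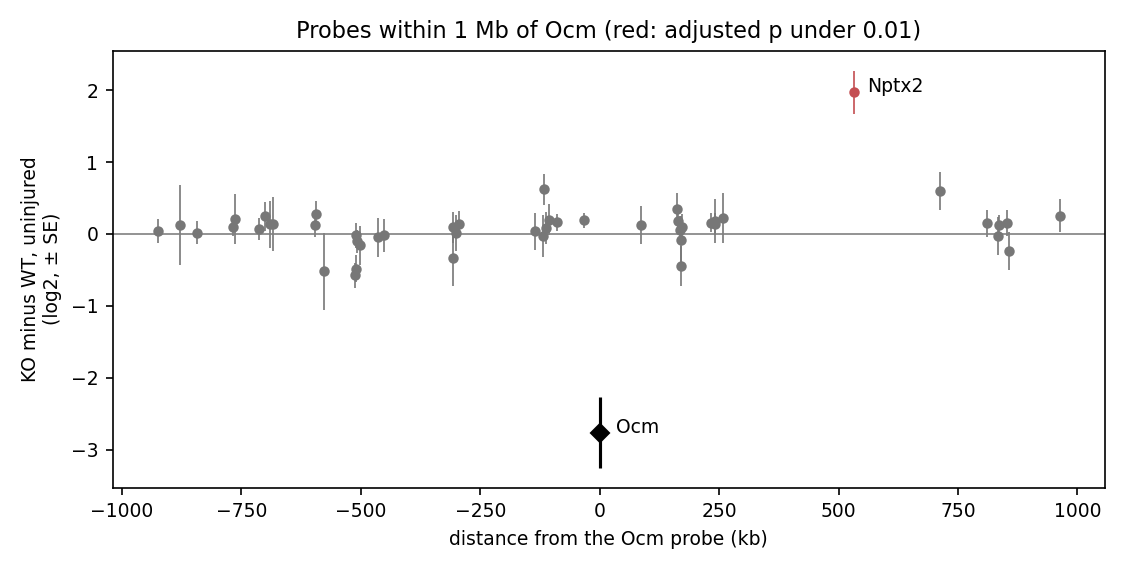
Difference between Myd88KO and wild-type uninjured tracheas (log2, with SE) for the 49 tested probes within 1 Mb of the Ocm probe, against their distance from it in kb. The black diamond is Ocm at −2.76, the red point is Nptx2 at 1.97, and the remaining probes lie between −0.57 and 0.62.

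The genes whose profile over the 20 arrays was nearest to that of Ocm, by mean absolute difference after each was centred on its own mean, were Ankk1, a kinase gene beside the dopamine D2 receptor gene (0.51), the glycerophosphodiesterase Gdpd1 (0.60) and Plekhs1, a pleckstrin-homology gene (0.63). The mean absolute deviation of Ocm itself was 1.20. All 3 were placed on other chromosomes than Ocm, namely 9, 11 and 19. Ankk1 averaged −0.37 in WT-control, −2.84 in KO-control, −0.73 in WT-injury and −2.44 in KO-injury, the same order of groups as Ocm. The choice of these genes used the same arrays, and their likeness is a description.

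Pvalb was read far above background on every array, and none of its differences passed the test. Its probe (chromosome 15, 78274169 to 78274228, minus strand) gave 4.66, 4.19, 5.19 and 4.97 on WT-control arrays 1, 3, 4 and 5. The spot of WT-control array 2 carried an outlier flag and was left out of the fit, and it would have read 5.91. KO-control gave 6.0, 5.20, 4.35, 4.52 and 5.97, WT-injury 4.38, 4.28, 3.35, 4.03 and 4.12, and KO-injury 5.26, 3.91, 3.95, 3.18 and 6.03. Uninjured Myd88KO and wild-type tracheas overlapped, with a difference of 0.46 ± 0.48 (SE), and 0.22 with the flagged spot kept. The 95% interval of this difference was −0.55 to 1.46.

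After injury the Pvalb difference between the genotypes was 0.43 ± 0.45 (SE, adjusted p = 0.734, limma). It turned to −0.35 without KO-injury arrays 1 and 5, which held the highest Pvalb values of their group, and was −0.21 on the first scanning day and 1.39 on the second. Injury minus control was −0.72 ± 0.48 (SE) in wild-type mice (adjusted p = 0.360, limma), lower on 4 of 4 slides. An exact two-sided permutation test of these 9 arrays alone gave p = 0.0397, where 0.0159 is the smallest that 4 arrays against 5 allow. In Myd88KO it was −0.74 ± 0.45 (SE, adjusted p = 0.385, limma) and −1.53 ± 0.38 (SE, adjusted p = 0.0108, limma) without arrays 1 and 5. The 2 responses differed by −0.02 (95% interval −1.40 to 1.36).

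Pvalb was lowest, in each group, on the array with the lowest summed level of fast muscle genes. All 11 fast skeletal muscle genes of the list were well enough above background to be tested. The level summed over the 10 of them with a value on all 20 arrays (Myh4 had an outlier-flagged spot on WT-control array 3), on a linear scale where 1 is the array's 75th percentile, ran from 864 to 1410 in WT-control, 782 to 1740 in KO-control, 504 to 1300 in WT-injury and 474 to 1790 in KO-injury. Single genes matched less closely: the array lowest in Pvalb was the lowest for 11 of the 11 genes in WT-injury and in KO-injury, 9 in KO-control and 4 in WT-control. The array with the lowest Pvalb of all, KO-injury 4, also had the lowest sum, 474, and the array with the highest Pvalb, KO-injury 5, had the highest sum, 1790. None of the 11 genes was called in any of the 5 comparisons by limma, or in the 4 that the one-way test covers, and 0 had an unadjusted p under 0.05. By limma 0 to 5.26% of all probes were called in the 5 comparisons, so 0 of 11 is near the background. The median difference of the 11 was 0.14 between uninjured genotypes, 0.17 between injured genotypes, and for injury minus control −0.45 in wild-type and −0.48 in Myd88KO, against −0.07 to 0.04 over all probes in these comparisons. Without KO-injury arrays 1 and 5 the median turned to −0.21 between injured genotypes and was −0.78 for injury in Myd88KO. Among them creatine kinase Ckm read −0.59 ± 0.38 (SE) after injury in wild-type and −0.61 ± 0.38 (SE) in Myd88KO, and the Z-disc gene Myoz1 read −0.65 ± 0.42 (SE) in Myd88KO. The genes nearest to Pvalb in profile over 19 arrays were Stac3, which couples excitation to contraction in skeletal muscle (0.23), the ankyrin-repeat gene Asb14 (0.25) and Cib2, itself an EF-hand protein (0.26), against a mean absolute deviation of 0.68 for Pvalb. The part of muscle content in the Pvalb values was not tested.

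**Figure D3:**
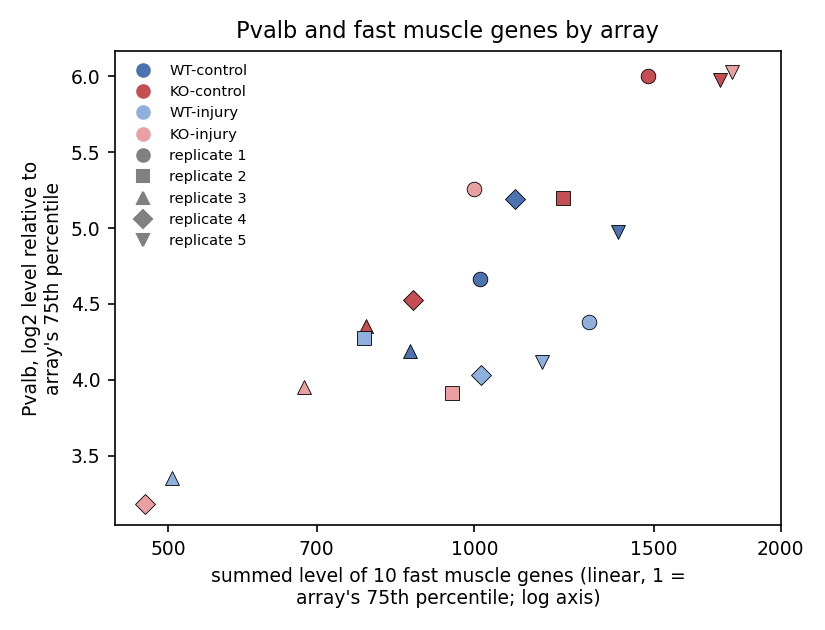
Log2 level of Pvalb against the summed linear level of the 10 fast skeletal muscle genes with a value on every array (log axis) on 19 arrays, with colour giving the group and shape the replicate number. In each group the array with the lowest sum is also the lowest in Pvalb, and the extremes are KO-injury array 4 (3.18) and KO-injury array 5 (6.03).

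Of 8 slow and cardiac muscle genes tested, 2 were called higher in Myd88KO before and after injury, where 0.384% and 0.38% of all probes were called, and 0 by the one-way test. They were the slow myosin heavy chain Myh7 (4.67-fold, adjusted p = 3.75e-05, and 3.93-fold, adjusted p = 0.000176, limma) and Myh6 (3.34-fold, adjusted p = 0.000757, and 3.19-fold, adjusted p = 0.00124).

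S100g showed no difference between uninjured genotypes and lower values in injured wild-type mice that did not pass the test. Its probe (chromosome X, 157736462 to 157736521, minus strand) was well above background on all 20 arrays. WT-control read −0.95, 1.13, 0.78, −0.06 and 0.99, and KO-control read 0.31, 0.67, 0.58, −0.23 and 0.88. WT-injury read −0.59, −1.0, −1.12, 0.21 and −1.03, and KO-injury read 1.78, −0.18, −0.07, −0.96 and 1.69. The uninjured groups overlapped fully, with means of 0.38 ± 0.88 (SD, n = 5) and 0.44 ± 0.43 (SD, n = 5) and a 95% interval of the difference of −0.95 to 1.07. Injury minus control was −1.08 ± 0.48 (SE) in wild-type (adjusted p = 0.157, limma) and 0.01 ± 0.48 (SE) in Myd88KO (adjusted p = 0.993, limma).

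The S100g values of injured Myd88KO tracheas fell into 2 arrays near 1.7 and 3 between −0.96 and −0.07. The former were arrays 1 and 5, the arrays that stood apart in the sum carried mostly by secretory genes. With all arrays, injured Myd88KO read 1.16 ± 0.48 (SE) above injured wild-type (adjusted p = 0.321, limma), by 0.23 on the first scanning day and 2.54 on the second. Without these 2 arrays the difference was 0.30 ± 0.42 (SE, adjusted p = 0.812, limma), and injury minus control in Myd88KO was −0.84 ± 0.42 (SE, adjusted p = 0.179, limma) beside the −1.08 of wild-type. The difference between the responses was 1.1 ± 0.69 (SE, adjusted p = 0.569, limma) with them and 0.24 ± 0.56 (SE, adjusted p = 0.875, limma) without. With the Xist class of each mouse in the fit, the injured difference was 1.25 ± 0.48 (SE, adjusted p = 0.224, limma). The part of these arrays' epithelial content in the S100g values was not tested.

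No gene of the vitamin D axis, which drives S100g in the gut, was called. Of 9 genes in the list, 7 were tested and 0 were called in any comparison by limma, or in those that the one-way test covers. By limma 0 to 5.26% of all probes were called in these comparisons, so 0 of 7 is near the background and is no result about the axis. An unadjusted p under 0.05 was given by 1 gene, Cyp27b1, after injury in Myd88KO. The vitamin D receptor Vdr differed by 0.23 ± 0.26 (SE) between uninjured and −0.35 ± 0.26 (SE) between injured genotypes. The activating enzyme Cyp27b1 differed by −0.49 ± 0.17 (SE, adjusted p = 0.119, limma) after injury in Myd88KO, the retinoid receptor Rxrg by −0.67 ± 0.33 (SE, adjusted p = 0.268, limma). The genes nearest to S100g in profile were Asb2 (0.45), 9330159F19Rik (0.46) and Cytl1 (0.46), against a mean absolute deviation of 0.76 for S100g itself.

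**Figure D4:**
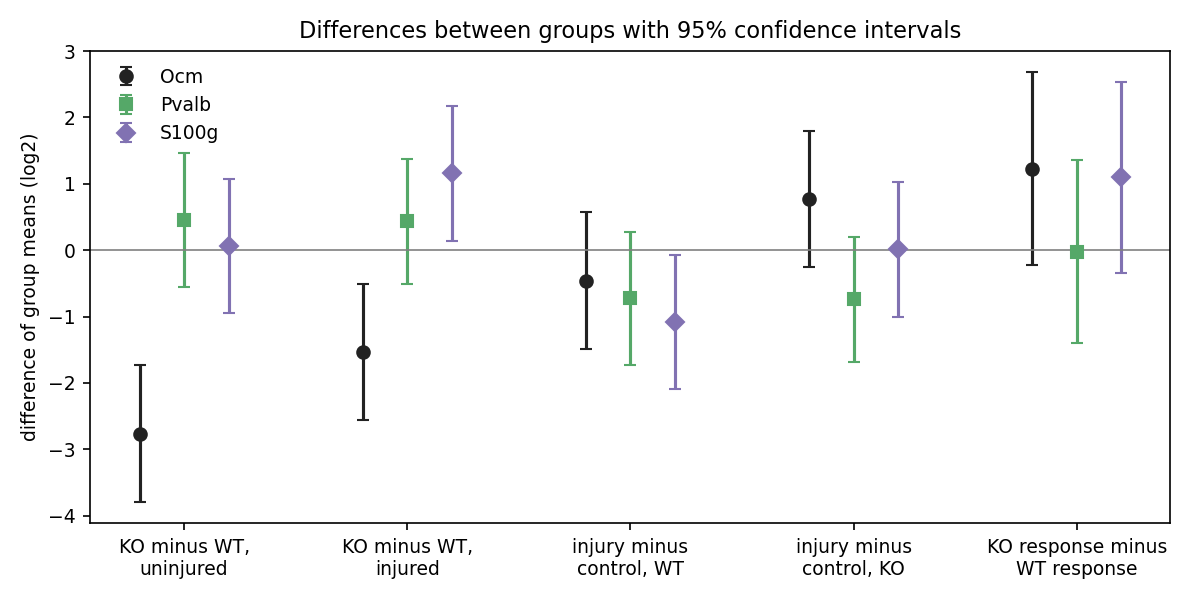
Difference of group means (log2) with its 95% confidence interval for Ocm, Pvalb and S100g in the 5 comparisons, from 1 fit over all 20 arrays. Ocm lies below 0 in both genotype comparisons (−2.76 and −1.53), while the intervals of Pvalb include 0 throughout. Those of S100g exclude 0 in the injured genotype and wild-type injury comparisons, neither of which passed the adjusted test.

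Calb1 and Calb2 were not detectable at the signal these arrays gave. The Calb1 probe (chromosome 4, 15832543 to 15832602, plus strand) is printed 10 times per array, and 3 of 200 spots (1.5%) were well above background. Its mean was −6.88 ± 0.31 in WT-control, −7.02 ± 0.35 in KO-control, −7.04 ± 0.23 in WT-injury and −7.05 ± 0.59 in KO-injury (SD, n = 5 each). On each array the dimmest probe that was well above background read between −5.42 and −4.37, so these levels are bounds and give no fold. For Calb2 (chromosome 8, minus strand), the probe printed 10 times (108743305 to 108743364) was well above background in 3 of 200 spots, the probe at 108751135 to 108751194 on 0 of 20 arrays, and the probe spanning 108743456 to 108748935 on 1 of 20. That 1 array was WT-control 5, at −3.61, where the other probes of the gene were not well above background, so the Calb2 probes disagreed there. Of 10 neuronal genes, 7 were tested, and none was called in any comparison by limma with all arrays (at most 3 had an unadjusted p under 0.05 in one). Over all probes 0 to 5.26% were called, so 0 of 7 is near the background. The summed level of the 7 ranged from 1.1 to 2.59 times the 75th percentile over the 20 arrays. Without KO-injury arrays 1 and 5, the neurofilament gene Nefl (−1.67, adjusted p = 0.00815, limma) and the synaptic gene Snap25 (−1.47, adjusted p = 0.00645, limma) were called lower after injury in Myd88KO. In that fit 7.55% of all probes were called in this comparison, against 0.376% with all arrays.

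**Figure D5:**
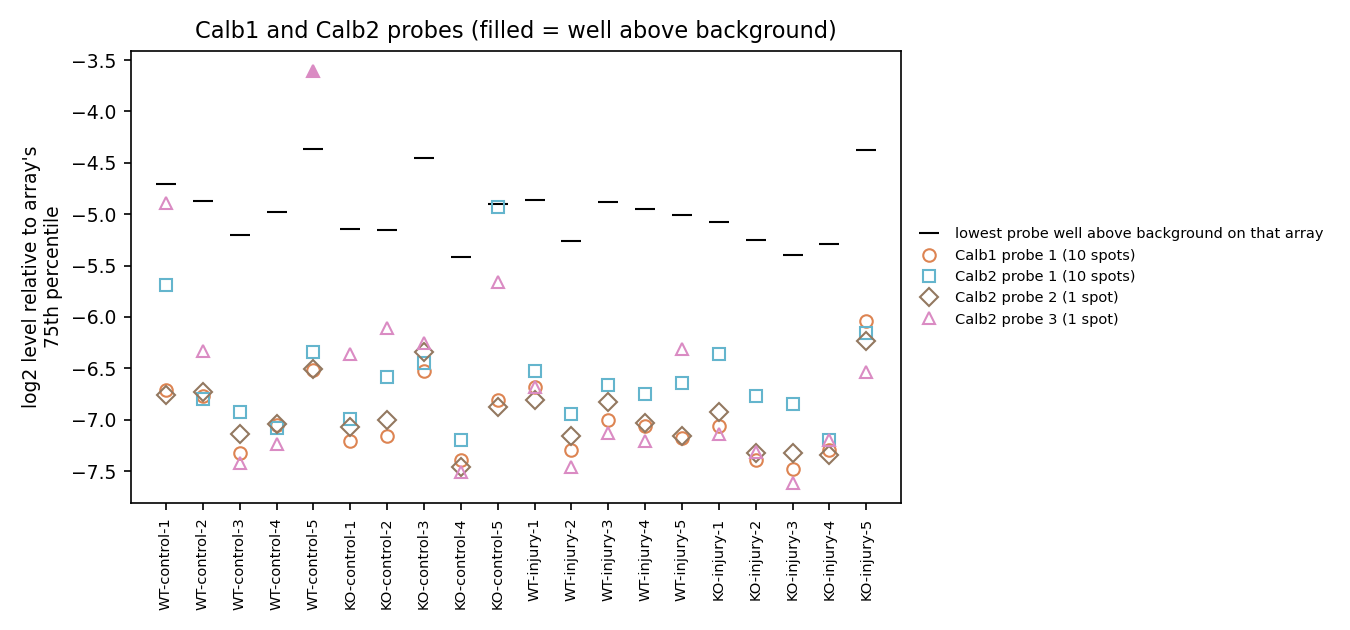
Log2 level of the Calb1 probe and the 3 Calb2 probes on each array, with a black dash at the dimmest probe that was well above background on that array (−5.42 to −4.37). Filled symbols are well above background: 1 symbol is filled, a Calb2 probe on WT-control array 5.

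A list of further EF-hand proteins, which holds no S100 protein and no myosin light chain, was read in the same comparisons. Of 55 EF-hand sensors and buffers in the list, 41 were tested, and 0 were called between genotypes before or after injury by limma or by the one-way test, with 4 and 5 at an unadjusted p under 0.05. By limma 0.384% and 0.38% of all probes were called, so 0 of 41 is near the background and is no result about these genes. The median differences of the 41 were 0.07 and −0.08, against 0.04 and −0.03 over all probes. The largest uninjured difference was that of the slow muscle and cardiac troponin Tnnc1, 1.47 ± 0.28 (SE) higher in Myd88KO (adjusted p = 0.0121, limma), followed by the calcineurin-binding Tesc at 1.00 ± 0.32 (SE, adjusted p = 0.332, limma). After injury Tnnc1 read 1.15 ± 0.28 (SE, adjusted p = 0.0667) and the endoplasmic reticulum protein Rcn3 −0.82 ± 0.21 (SE, adjusted p = 0.0843).

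Injury in wild-type mice changed 3 of the 41, a share near that of all probes. The actin-bundling Efhd2 of immune cells rose 1.93-fold (adjusted p = 0.00483) and Guca1a, a guanylate cyclase activator known from photoreceptors, rose 2.14-fold from a low level (adjusted p = 0.00203). The EF-hand protein Calml4 of brush borders fell 4.06-fold (adjusted p = 0.00172), and the centrin Cetn4 of ciliary bases had a difference of −1.77 (adjusted p = 0.025, not called). In Myd88KO 0 of the 41 were called by limma or by the one-way test (7 at an unadjusted p under 0.05), where limma called 0.376% of all probes. Calml4 read −1.44 ± 0.36 (SE, adjusted p = 0.0357, limma) there. Without KO-injury arrays 1 and 5, 5 were lower after injury in Myd88KO, namely Calml4, Caln1, Cetn4, Cib2 and Efhd1, against 7.55% of all probes called there. In wild-type mice, with the smaller spread of that fit, 3 were then higher (Sri in addition) and 2 lower (Cetn4 in addition), against 9.12% of all probes. Among 26 tested calcium pumps, exchangers, channels and stores, 0 were called between genotypes by limma or by the one-way test (4 before and 3 after injury at an unadjusted p under 0.05). By limma 0.384% and 0.38% of all probes were called, so 0 of 26 is near the background. After injury in wild-type 1 of the 26 was called, beside 5.26% of all probes, the inositol trisphosphate receptor Itpr1 (1.66-fold lower, adjusted p = 0.00396, limma). In Myd88KO 1 was called, beside 0.376% of all probes, the epithelial calcium channel Trpv6 (2.37-fold lower, adjusted p = 0.00712, limma). Without arrays 1 and 5, Atp2b2, a plasma membrane calcium pump, was also called there (−1.22, adjusted p = 0.000774, limma), beside 7.55% of all probes.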

How the data were processed

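The authors deposited scanner output per array, with intensity values from Agilent Feature Extraction (background subtracted, spatially detrended, not scaled between arrays), and a value table holding the same intensity rounded. The genome build behind the probe positions is not given in the sources used here. For this report, outlier-flagged spots (1960 over 20 arrays) were left out, spots of a probe were averaged on the log2 scale, and each array's 75th percentile was subtracted. Probes were named through their accession or symbol with RefSeq tables (8455 of 41174 kept the array's name). The 26063 probes well above background on at least 10 of 20 arrays were fitted together over the 4 groups with limma 3.58.1 (R 4.3.3) and called at a Benjamini-Hochberg adjusted p under 0.01. For list genes the brightest tested probe was used. The number of arrays limits the precision. The script was tested on simulated data. Members, lists and tests were chosen with earlier results of these data known. Named genes were the members, the 3 nearest profiles, called neighbours, and called or the 2 widest list genes. Same-numbered arrays shared a slide, but their deviations correlated unevenly (medians 0.0775 to 0.424), so the replicate block was an alternative. The methods' one-way test was one of the alternatives. In all, 35 alternative settings were run.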

Additional observations from a re-analysis of the deposited data

How the results depend on the processing

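The differences of Ocm, Pvalb and S100g were recomputed under 32 to 35 settings each (the one-way test and 2-group fits give no response difference, and the filter on all 20 arrays leaves out Pvalb), 3 of them (outlier spots kept, KO-injury arrays 1 and 5 left out, Xist class as a block) chosen after seeing the data. The uninjured Ocm difference ranged from −3.02 to −1.83, the latter with normexp background correction, and the injured one from −2.13 to −1.06 (adjusted p 0.0274 to 0.576, limma), on the same side of 0 in all 35. The uninjured Ocm difference, which chose the gene, was among the calls as reported and in 24 of 35 settings, and not in 11, which include the replicate block, normexp, the one-way test and 8 that leave out 1 array. As this comparison chose Ocm on the same arrays, these counts describe how the choice depends on the settings and are no test of Ocm. With the replicate block (slide), the values were −2.76 and −1.53 (adjusted p = 0.166 for the latter), and the block changed no call of Pvalb or S100g. The signs of near-zero differences turned. The injured Pvalb difference became −0.0298 with array weights and −0.35 without arrays 1 and 5 of KO-injury. The difference between Pvalb responses became 0.0078 with normexp, 0.16 with quantile normalization and 0.21 with outlier spots kept, and ranged from −0.41 to 0.30 when single arrays were left out. The S100g response of Myd88KO became −0.59 with array weights and −0.84 without both arrays, and ranged from −0.32 to 0.36 without single arrays. The causes were not tested. The number of probes called ranged from 46 to 179 (uninjured genotypes), 21 to 140 (injured genotypes), 665 to 2630 (injury, wild-type), 0 to 2088 (injury, Myd88KO) and 0 to 4 (difference of responses). Array signal limits Calb1 and Calb2, whose levels are bounds.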
